A study of Populus tremula x Populus alba with 3 samples.

Results

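The genes described here are 6 transcription factor genes of hybrid poplar, out of 577 genes that the authors listed as both hypermethylated and changed in expression in DML10 knockdown buds. They were taken by identifier and span 5 families of DNA-binding proteins: the MYB-type genes MYB62 (Potri.008G122100) and RL6 (Potri.002G035000), the bZIP gene BZIP61 (Potri.001G374200), a basic helix-loop-helix (bHLH) gene (Potri.001G017300), the SQUAMOSA promoter binding protein-like gene SPL7 (Potri.008G197000) and a C2H2-like zinc finger gene (Potri.002G143800). The names are those of the closest Arabidopsis genes in the authors' tables, and all 6 identifiers were found there. The listed genes were selected on the methylation difference and on the expression FDR by the authors, and the 6 were chosen by family with their gains and logFC already known. Those values are therefore given as a description, with no test.

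KD2 and KD5 are RNA interference lines directed against PtaDML10, and WT is the wild type, all in Populus tremula x Populus alba, INRA clone 717-1B4. The promoter driving the RNA interference construct is not given in the sources used here. Plants of all 3 genotypes grew for 4 weeks in long days (16 h light, 21 °C), formed buds over 12 weeks of short days (8 h light, 19 °C) and were then chilled for 4 weeks at 4 °C in short days. For each genotype, 15 closed apical buds, 1 from each of 15 plants, were pooled and gave 1 bisulfite library, so no methylation difference has a replicate check. The apical bud identity could not be checked against marker genes, since the tables hold only genes past both thresholds.

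DEMETER-like proteins such as DML10 are DNA glycosylases that cut 5-methylcytosine out of DNA, so a loss of their activity leaves methylation in place. In plants cytosine is methylated in CG, CHG and CHH contexts (H is A, C or T), which are maintained by different methyltransferases. Dense promoter methylation often goes with low transcription, whereas CG methylation inside coding sequence is common in active genes. Transcription factors of the MYB, bZIP, bHLH, SPL and C2H2 families bind short DNA motifs near their target genes, and many of them act in meristems, in hormone responses and in the use of nutrients.

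Each of the 6 genes was listed for 1 gene part only, as were most listed genes. RL6 and BZIP61 were listed for the promoter alone, and MYB62, SPL7, the bHLH gene and the C2H2-like gene for the transcribed region alone. None of them was among the genes listed for both parts, which were only 30 of the 577 (5.2%). In the authors' deposited tables both promoter genes had a negative logFC and all 4 transcribed region genes a positive one. A negative logFC was found for 66.3% of all promoter genes (55 of 83), and a positive one for 51.5% of all transcribed region genes (270 of 524). These shares are over all expression levels. Over all 577 listed genes the split was 51.0% negative and 49.0% positive. The headers state neither the direction of the logFC nor its log base, so a positive value cannot be read as higher or lower in the knockdowns. It is 1 value per gene for both lines together, and all listed genes (100.0%) had an FDR below 0.05 for expression.

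RL6 belongs to the RADIALIS-like group, small proteins with a single MYB-type SANT domain, named after a snapdragon regulator of floral asymmetry. Its promoter was listed in the CHG context only, as were 18 of the 83 promoter genes. The window spans 2000 bases of chromosome 2 (2248953 to 2250952). In the authors' deposited table its CHG methylation gain over WT was 19.0 percentage points for KD2 and 22.6 points for KD5. Both values sat at the middle of the 30 CHG promoters, rank 15 in each line, where the table medians were 18.9 points in KD2 and 21.8 points in KD5. The excess of KD5 over KD2 was 3.53 points, against a median excess of 3.23 points. Of the 6 genes RL6 carried the most negative logFC, -2.17 at a logCPM of 1.36 and an FDR of 0.00599 in the authors' deposited table. Only 6 of the 577 listed genes had a lower logFC.

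BZIP61 encodes a basic leucine zipper protein, a class that binds DNA as dimers. Its promoter was listed in CG and in CHG, with the same window of 2000 bases on chromosome 1 (38851870 to 38853869) in both. In the authors' deposited tables the CG gain over WT was 19.3 points in KD2 and 31.2 points in KD5, and the CHG gain was 17.4 points in KD2 and 28.7 points in KD5. The gain in KD5 was thus the larger one in either context, by 12.0 points in CG and 11.3 points in CHG. That excess ranked 13 of 49 among CG promoters and 3 of 30 among CHG promoters. In KD2 alone the gains were ordinary, rank 26 of 49 in CG and 21 of 30 in CHG. In KD5 they ranked 17 of 49 and 6 of 30. The CG gain exceeded the CHG gain by 1.86 points in KD2 and by 2.57 points in KD5. Both lines share the single WT library, so the values of the lines are not independent of each other.

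Listing in both CG and CHG was uncommon among promoters. It applied to 8 of the 83 promoter genes, each with 1 window for both contexts. The window was 2000 bases long for 72 of the 83, and closed 1 base before the gene in all 28 that could be checked. It thus appears to mark the promoter and not the stretch that gained methylation, so a shared window does not place the gains. The gain was larger in KD5 than in KD2 in both contexts at 4 of these 8 promoters, BZIP61 among them. At 2 of the 8, again with BZIP61, the CG gain exceeded the CHG gain in both lines. In expression, the authors' deposited tables gave BZIP61 a logFC of -1.32, a logCPM of 2.34 and an FDR of 0.0286.

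**Figure D1:**
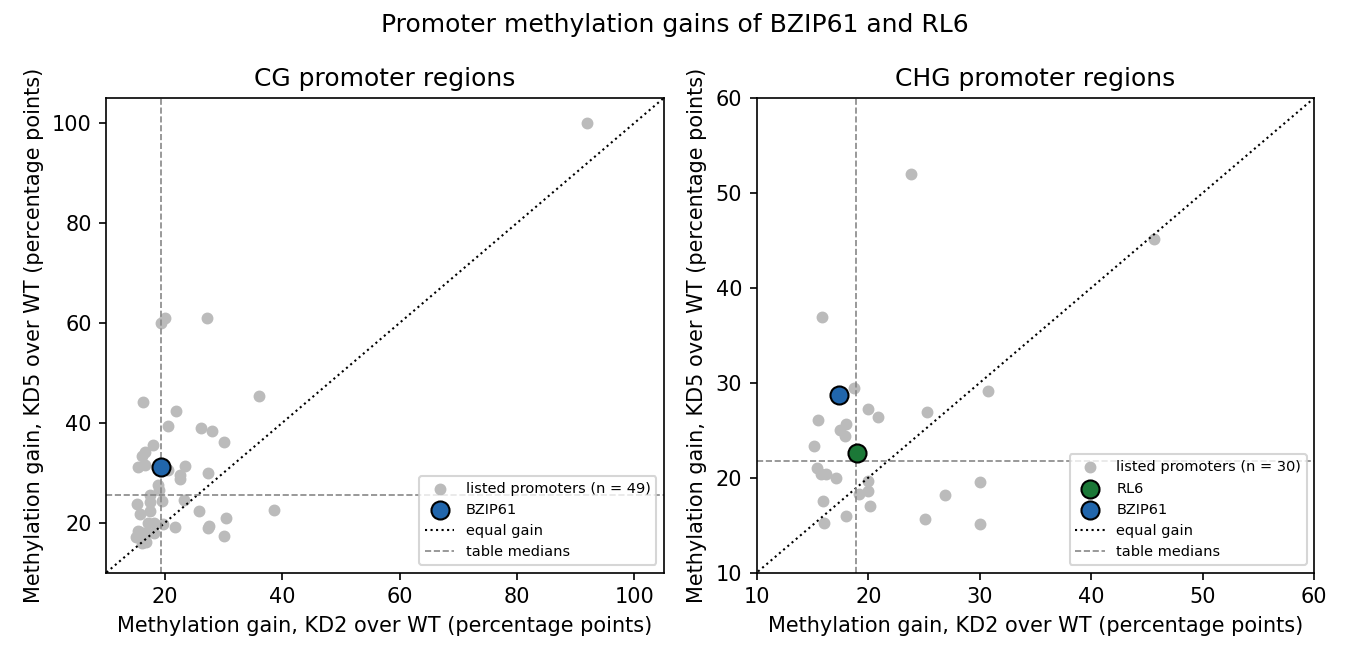
Methylation gain over WT in KD2 (horizontal axis) and KD5 (vertical axis), in percentage points, for each promoter listed in CG (left, n = 49) and CHG (right, n = 30). BZIP61 lies above the line of equal gain in both panels (19.3 and 31.2 points in CG, 17.4 and 28.7 points in CHG for KD2 and KD5), while RL6 lies near the crossing of the table medians (dashed) in CHG.

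The strand of these promoters is not listed, but the order of the window ends carries it. For the 28 genes with a promoter window and a gene model on the same chromosome, the order of the ends followed the strand in 28 and the window closed 1 base before the annotated gene in 28. Read this way, RL6 and BZIP61 lie on the plus strand, directly downstream of their windows. Both windows lie on the chromosome that the gene identifier names.

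The 4 transcribed region genes differed in context and in the feature hit. For these tables the authors give the features of a gene that a hypermethylated region touches, but no size of the gain and no position of the region itself. The values below are therefore the positions of features. A region may cover only a piece of the feature listed, or reach past it into an intron.

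The bHLH gene was listed in all 3 contexts, which held for 29 of the 524 transcribed region genes. It lies on the minus strand of chromosome 1 (1238628 to 1241557), a span of 2930 bases with 3 gene models. In each context the feature listed was coding segment 1 (1240478 to 1241057), which begins 500 bases after the annotated gene start and makes up 19.8% of the span. All 3 models share this segment. Among genes with a coding segment listed, the first segment was included in 25.1% in CG (68 of 271), 19.8% in CHG (22 of 111) and 26.3% in CHH (20 of 76). Its logFC was 0.97, its logCPM 3.67 and its FDR 0.0470 in the authors' deposited tables.

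The C2H2-like gene, whose family carries the classical zinc finger built on 2 cysteines and 2 histidines, was listed in CG and CHG. That combination without CHH was found for 59 of the 524 genes. It lies on the plus strand of chromosome 2 (10689571 to 10690689). At 1119 bases it is among the shortest listed genes, with only 10 of 505 single-position gene models shorter and a median span of 4250 bases. Coding segment 2 (10689827 to 10690689) was listed in both contexts and fills 77.1% of the span. Its logFC in the authors' deposited tables was 2.40, with a logCPM of 1.15 and an FDR of 0.0456.

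Naming the same features in every context was the rarer case. Of 136 genes present in several transcribed region tables, 51 (37.5%) had identical feature lists in each, the bHLH gene and the C2H2-like gene among them. Any gene with no feature listed in each of its contexts is included in the 51. The share naming the same features may thus be lower.

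SPL7, which in Arabidopsis is the central regulator of the response to copper deficiency, was listed in CG only, as were 270 of the 524 genes. It lies on the plus strand of chromosome 8 (13762312 to 13769824) and spans 7513 bases, longer than 418 of the 505 gene models. The listed features were the short coding segments 6 (13765047 to 13765161, 115 bases) and 7 (13765356 to 13765491, 136 bases). They lie between 2735 and 3179 bases downstream of the gene start and make up 1.53% and 1.81% of the span. For SPL7 the authors' deposited table gave a logFC of 0.99, a logCPM of 4.56 and an FDR of 0.0110.

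MYB62, which in Arabidopsis is induced by phosphate starvation and affects gibberellin synthesis, was the only one of these 4 genes with a UTR listed. It appeared in CHH alone, as did 46 of the 524 genes. It lies on the plus strand of chromosome 8 (7951103 to 7953097), a span of 1995 bases. The feature was the 3' UTR (7952552 to 7953097), 546 bases or 27.4% of the span, at the end of the gene. A 3' UTR without any coding segment or 5' UTR was listed for 17 of 123 CHH genes (13.8%). SPL7, the bHLH gene and the C2H2-like gene had coding segments and no UTR listed. So did 42.0% of CG genes (163 of 388), 36.5% of CHG genes (65 of 178) and 35.0% of CHH genes (43 of 123). The annotated C2H2-like gene ends with its listed coding segment, so it has no 3' UTR that could be listed. The logFC of MYB62 was 2.43, its logCPM 1.52 and its FDR 0.0187 in the authors' deposited table.

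**Figure D2:**
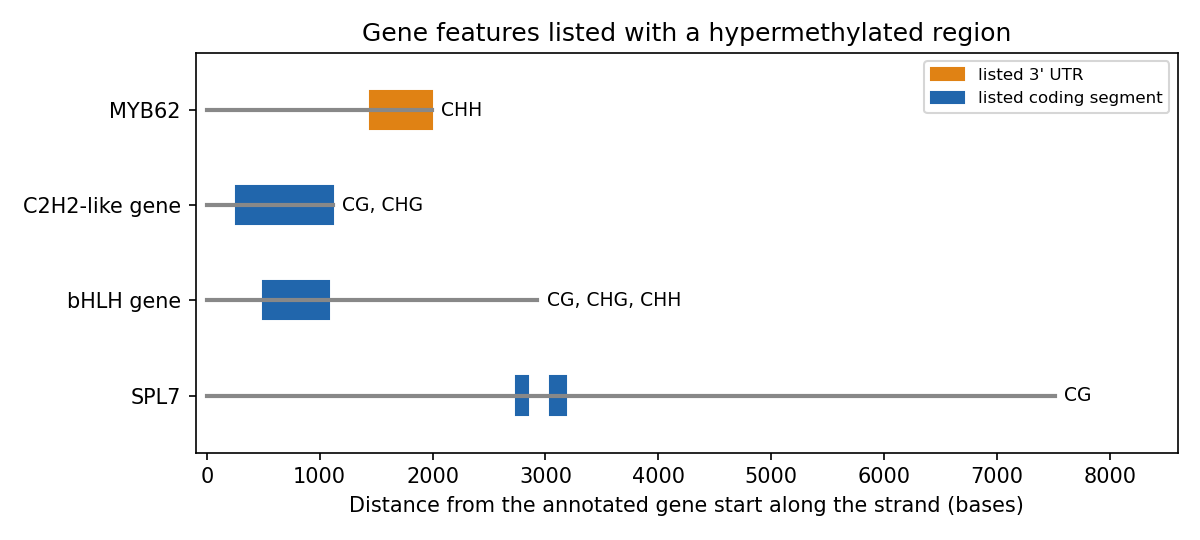
Annotated span of each transcribed region gene (grey line) and the features listed with a hypermethylated region (boxes), in bases from the gene start along the strand, with the contexts at the right. The listed coding segment begins 500 bases after the gene start in the bHLH gene and fills 77.1% of the C2H2-like gene up to its end, SPL7 has 2 short segments inside a span of 7513 bases, and MYB62 has its 3' UTR.

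In expression the 6 genes formed a weakly expressed group with large values and a stronger expressed group with small ones. MYB62, RL6, BZIP61 and the C2H2-like gene fell in the lowest logCPM quintile of the authors' deposited tables (0.18 to 3.21), and their logFC ranged from -2.17 to 2.43. The bHLH gene and SPL7, at logCPM 3.67 and 4.56 in the same tables, had a logFC of 0.97 and 0.99. An absolute logFC of at least 1 was reached by 4 of the 6 genes (66.7%), against 47.8% of all listed genes at any expression level. These 4 were the genes of the lowest quintile. Every listed gene of the same sign with a logCPM within 0.5 of theirs also exceeded 1. The smallest such absolute logFC was 1.15, near BZIP61, so reaching 1 does not set the 4 genes apart at their level. The bHLH gene and SPL7 fell just short of 1.

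Large values are usual among listed genes of low expression. In the lowest quintile the absolute logFC had a median of 1.61, against 0.99 over all listed genes. Each of the 6 genes was therefore set beside the listed genes of the same sign with a logCPM within 0.5 of its own, a comparison chosen after the values were seen. RL6 was farther from 0 than 5 of 8 such genes (median logFC -1.92), and MYB62 farther than 13 of 20 (median 2.29). SPL7 was farther from 0 than 40 of 77 genes (median 0.98) and the C2H2-like gene than 5 of 13 (median 2.65). BZIP61 exceeded 4 of 15 (median -1.40) and the bHLH gene 11 of 83 (median 1.10). At their own expression level the bHLH gene and BZIP61 were thus among the smaller changes of the list, and RL6 and MYB62 were above its middle.

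The sign of the logFC varied with expression level among the listed genes. Of the 116 genes in the lowest logCPM quintile, 81 (69.8%) had a positive logFC and 35 (30.2%) a negative one. MYB62 and the C2H2-like gene had the common sign, RL6 and BZIP61 the less common one. In the quintile of the bHLH gene 76.5% of genes were positive, and in that of SPL7 58.3%, so both had the common sign. Among the genes described here, those with the less common sign for their level were thus the promoter genes. In the lowest quintile, however, promoter genes with a positive logFC outnumbered those with a negative one. Most listed promoter genes of that level therefore carried the common sign, unlike RL6 and BZIP61.

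**Figure D3:**
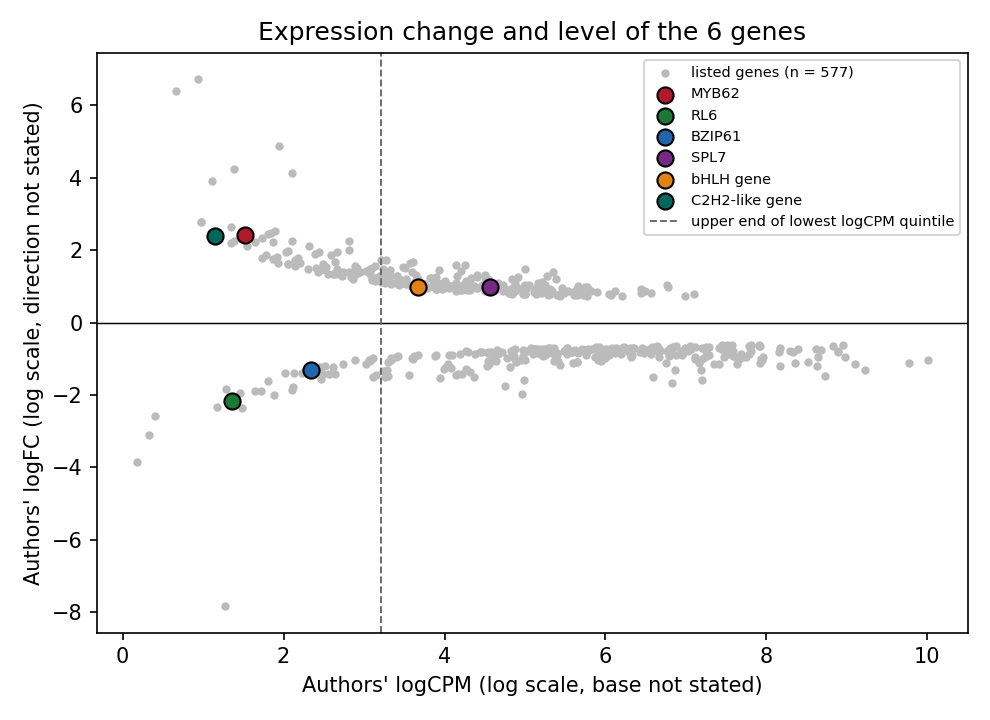
The authors' logFC against logCPM for all 577 listed genes (grey) and the 6 transcription factor genes (coloured), both on a log scale of unstated base. MYB62, RL6, BZIP61 and the C2H2-like gene lie left of the dashed line at logCPM 3.21. Listed genes near a logFC of 0 are missing at every level (smallest absolute logFC 0.617), and the gap is wider left of the line.

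The FDR of expression was close to the threshold for several of the genes. Only RL6 had an FDR below 0.01, 1 of 6 genes (16.7%), against 42.6% of all listed genes. In the lowest logCPM quintile, which holds RL6, MYB62, BZIP61 and the C2H2-like gene, the share was 36.2% (42 of 116). The bHLH gene (0.0470) and the C2H2-like gene (0.0456) sat at the upper end in the authors' deposited tables, with only 22 and 28 of the 577 genes at a higher FDR. SPL7, at 0.0110, lay just above 0.01.

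The wider set of listed transcription factors held both signs of logFC. By family words in the annotation, 19 listed genes were transcription factors, the 6 genes included. Of these 11 had a negative logFC (57.9%, exact Clopper-Pearson 95% interval 33.5 to 79.7, counting error only) and 8 a positive one, against 51.0% negative over all listed genes. The median logFC was -0.73, and -0.63 over all 577 genes. The smallest absolute logFC of all listed genes was 0.617, so such a median falls on one side of a gap. An FDR below 0.01 was found for 3 of the 19 (15.8%), against 42.6% of all listed genes. These were RL6, the homeobox gene HB31 and the meristem gene STM, all with a negative logFC, the sign of 59.3% of all listed genes with such an FDR (146 of 246).

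Relatives of the 6 genes in their own families were few. The MYB-type group held LHY (Potri.002G180800), a morning-phased clock gene, and Potri.019G020900, a homeodomain-like gene. In the authors' deposited tables LHY had -0.80 as its logFC, with coding segment 3 listed in CG. Potri.019G020900 had 1.14 there, with coding segment 1 (2 in 1 of the gene models) and the 5' UTR listed in CG, but segment 5 (6 in 1 of the models) and the 3' UTR in CHH. The other bZIP gene was bZIP63 (Potri.005G053200), an Arabidopsis factor of the response to low energy. Its logFC was -0.80 in the authors' deposited table, and its region touched coding segment 3 in CG. Unlike BZIP61 it was listed for the transcribed region and not for the promoter, and both bZIP genes were negative.

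The tables held 2 more bHLH genes. For Potri.005G146500 the authors' deposited table gave a logFC of 0.95, close to the 0.97 of Potri.001G017300, and its CG region also touched coding segment 1, together with the 5' UTR. Potri.018G083700 had the opposite sign, -0.66, at a logCPM of 6.62 in the authors' deposited tables, with coding segments numbered 2 to 4, depending on the gene model, in CG and 6 to 8 in CHH, and a 3' UTR listed in both. No further SPL or C2H2 gene was listed.

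Among other families, all 4 homeobox genes had a negative logFC in the authors' deposited tables, against 51.0% of all listed genes: HB31 (Potri.004G229600) with -1.50, the KNAT6 homologues Potri.015G079100 with -1.0 and Potri.012G087100 with -0.78, and STM (Potri.004G004700) with -0.87. The boundary gene CUC3 (Potri.005G255900, 1.40) and the MADS-box floral gene SEP1 (Potri.008G098400, 1.81) were positive in the authors' deposited tables, and the GRAS gene SCL8 (Potri.017G142400) was negative at -0.73. The only other transcription factor listed for the promoter was NF-YB13 (Potri.015G052800), a subunit of the CCAAT-binding NF-Y complex class. In the authors' deposited table its CG gain was 16.4 points for KD2 and 16.4 points for KD5, and its logFC was -0.77. All 3 promoter transcription factors were negative, against 66.3% of all promoter genes at any expression level. The 16 of the transcribed region were split 8 to 8, against 48.5% negative among all transcribed region genes.

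**Figure D4:**
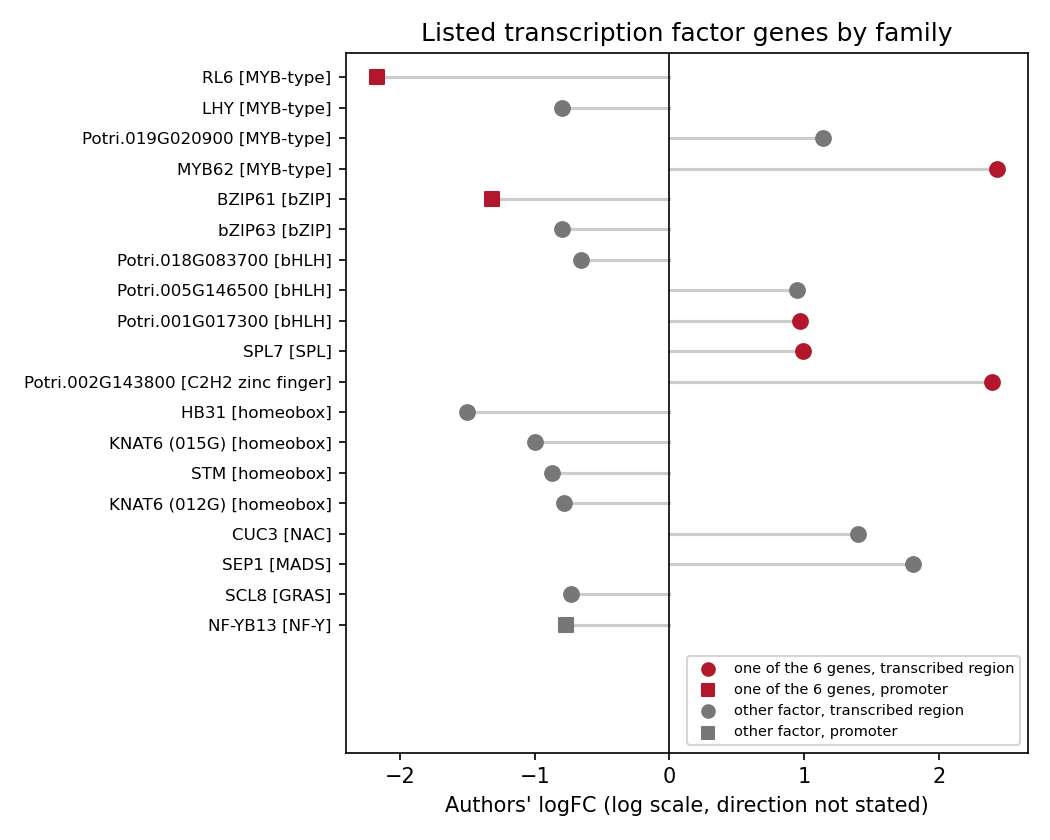
The authors' logFC of the 19 listed transcription factor genes by family, with the 6 genes in red and promoter genes as squares. The 3 squares lie left of 0, and MYB62 (2.43) and the C2H2-like gene (2.40) have the largest positive values.

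None of the listed genes most like each of the 6 in values was among the listed transcription factors. Those make up only 19 of the 577 listed genes, the 6 included, so this says little about the 6. Potri.005G221800, Potri.008G145000 and Potri.006G168600 carried no name or annotation, so their families are unknown. By distance in KD2 and KD5 gain, over those 2 libraries, the promoter nearest to RL6 in CHG was that of a ribosomal protein L36e gene (Potri.011G066000, 17.9 points for KD2 and 24.4 points for KD5 in the authors' deposited table), followed by Potri.005G221800 (17.5 and 25.0 points in KD2 and KD5). Nearest to BZIP61 was an endoribonuclease L-PSP gene in CG (Potri.001G435700, 20.6 points in KD2 and 30.6 points in KD5) and the cellulose synthase-like gene CSLD3 in CHG (Potri.001G136200, 18.7 points in KD2 and 29.5 points in KD5), per the authors' deposited tables. The second nearest were Potri.017G063100 in CG and Potri.008G145000 in CHG. In the authors' deposited tables the logFC was -0.84 for Potri.011G066000 and -2.57 for Potri.005G221800, against -2.17 for RL6. In the same deposited tables of the authors it was -1.17 for Potri.001G435700, 6.39 for Potri.017G063100, 1.79 for CSLD3 and -0.88 for Potri.008G145000, against -1.32 for BZIP61.

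For the transcribed region genes likeness was the distance in logFC and logCPM among genes listed in any of the gene's contexts. A neighbour is thus alike in expression and need not share all of those contexts. MYB62 and the C2H2-like gene shared 1 neighbour, Potri.017G021800 (logFC 2.65, logCPM 1.35 in the authors' deposited tables). It is annotated with a BED zinc finger and a hAT family dimerisation domain. The other neighbour was Potri.006G168600 for MYB62 and the NB-ARC disease resistance gene Potri.001G428100 for the C2H2-like gene. SPL7 was nearest to an RNA-binding gene (Potri.016G084700) and an HSP90-like ATPase family gene (Potri.015G079400). The bHLH gene was nearest to SCA3 (Potri.006G181100) and a glycosyltransferase gene (Potri.001G399500).

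Distances to other listed genes were also measured along the chromosome. The nearest listed gene was 54.0 kb from SPL7 (Potri.008G197700, a dioxygenase family gene, logFC -0.73 in the authors' deposited table) and 79.9 kb from MYB62 (RPL15, Potri.008G121100, logFC -0.89 in the authors' deposited table). For the other 4 genes the distance ranged from 131 kb for RL6 to 489 kb for the bHLH gene. The nearest listed gene had the same sign of logFC for 2 of the 6, BZIP61 (-1.32, with -0.92 for its neighbour in the authors' deposited tables) and the C2H2-like gene (2.40, with 1.20 for its neighbour). It had the opposite sign for the other 4. How often the nearest listed gene shares the sign over the whole list was not counted, so 2 of 6 is a description only.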

How the data were processed

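Genomic DNA of pooled apical buds was sequenced after bisulfite treatment, and Bismark and methylKit were used per the submitters' processing notes. Their versions, any coverage filter and the build are not stated in the sources used here, and depth is unknown. Gene models carry a Phytozome tag per the file headers and contents, and coordinates are printed as deposited. No genome was used, so no sequence is shown.

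The values are the authors' own comparisons in 6 tables, with no value per library. Methylation differences deposited by the authors are in percentage points, all negative under titles that call the regions hypermethylated. The sign was taken to mean WT minus knockdown and was reversed to give gains. The authors deposited a logFC and a logCPM, taken as log2 values from the column names although the base is not stated, and a p-value and an FDR. The expression libraries are not among the 3 samples and were not analysed here.

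Each gene was counted once. Ranks, counts, medians and exact Clopper-Pearson intervals were computed in Python 3.11.15 with pandas 2.3.3 and SciPy 1.17.1 and plotted with matplotlib 3.10.9, checked on simulated data. No test was run. The genes and lists were chosen with earlier results of these data known. Named genes were the 6 genes, all listed genes of their families, up to 10 of other transcription factor families, 2 genes nearest in values to each, and the nearest listed gene on the chromosome. A family was assigned by annotation words or the Arabidopsis symbol. Alternatives were an FDR below 0.01, an absolute logFC of at least 1, means for medians, other comparison sets for ranks, annotation words alone, promoter genes left out, gains no less than 1.5 times the table's smallest, windows on the identifier's chromosome, and the first gene model only.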

Additional observations from a re-analysis of the deposited data

How the results depend on the processing

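No paired analysis was possible because each genotype is 1 library and the tables hold comparisons only, and no replicate could be left out. With an FDR below 0.01, 3 transcription factor genes had a negative logFC, of 3 left, against 11 of 19. The same filter left 1 of the 2 negative genes among the 6 described, and a median logFC of -1.50 against -0.73. With an absolute logFC of at least 1, 3 of 8 transcription factor genes were negative. The mean logFC of the 19 genes was 0.04, a positive value against the negative median, so the direction of the list depends on the summary. No promoter entry of RL6 or BZIP61 reached 1.5 times the smallest gain of its table in both lines, leaving 0 of 3. Ranked from the extreme of its own sign, a gene's logFC stood at 2.25% of all listed genes for MYB62, 1.21% for RL6, 7.45% for BZIP61, 32.8% for SPL7, 34.7% for the bHLH gene and 2.43% for the C2H2-like gene. Within the gene's logCPM quintile this was 11.2% for MYB62, 6.03% for RL6, 22.4% for BZIP61, 23.5% for SPL7, 65.2% for the bHLH gene and 12.1% for the C2H2-like gene, and within promoter genes 4.82% for RL6 and 14.5% for BZIP61. Within transcribed region genes it was 2.10% for MYB62, 33.6% for SPL7, 35.7% for the bHLH gene and 2.29% for the C2H2-like gene. All these shares divide by genes of both signs, so they are smaller than shares among genes of the same sign. Among quintile genes of its own sign, MYB62 ranked 13 of 81, RL6 7 of 35 and BZIP61 26 of 35. SPL7 ranked 27 of 67, the bHLH gene 75 of 88 and the C2H2-like gene 14 of 81. The other alternatives gave the same count or stayed within 1.5 times of it. Depth is unknown, so the precision of a gain cannot be stated.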

Other observations

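The transcribed region tables hold a second set of coordinates that the headers do not explain. It is filled for 193 of 388 CG genes (49.7%), 135 of 178 CHG genes (75.8%) and 103 of 123 CHH genes (83.7%). For the bHLH gene it is filled in CHG and CHH and empty in CG. For the C2H2-like gene it is filled in CHG and empty in CG, for MYB62 filled in CHH, and for SPL7 empty in CG. Where filled, it repeats the start and end given for the gene in 185 of 193 CG rows, 134 of 135 CHG rows and 102 of 103 CHH rows. Why it is empty in the other rows is not stated in the headers.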
